A study of Mus musculus with 2 samples.

Results

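The 4 creatine kinase genes and 2 ADP/ATP carrier genes (Ckm, Ckb, Ckmt1, Ckmt2, Slc25a4 and Slc25a5) were taken by symbol from the feature list, 6 of 40276 features. Each symbol belonged to 1 feature. They were followed in a section of normal mouse heart and a section of normal mouse brain, both cut at 5 µm from formalin-fixed, paraffin-embedded (FFPE) tissue. In FFPE tissue RNA is crosslinked and fragmented. The libraries were made with the spRandom-seq protocol, which primes total RNA at random positions, and each count carries the barcode of a spot on the section. Strain, age and sex are not given in the sources used here, and both sections had reverse transcription with a primer lacking cell barcode 2. With 1 library per tissue (n = 1) the differences could not be checked in a second section, and p-values are left out. Ranges in brackets are exact 95% intervals that cover counting error only and treat every count as its own molecule. For the percent of spots with a count they treat each spot as its own draw, although spots of 1 section are not replicates.

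Creatine kinases move a phosphate group between ATP and creatine, so that phosphocreatine can carry energy from mitochondria to the places where ATP is used and hold it in reserve. Cytosolic enzymes are dimers built from the muscle subunit (Ckm) and the brain subunit (Ckb). Mitochondrial enzymes sit between the outer and inner membranes and come in a sarcomeric form (Ckmt2) and a ubiquitous form (Ckmt1). The ADP/ATP carriers of the inner membrane, Slc25a4 (Ant1) and Slc25a5 (Ant2), export the ATP made in the matrix in exchange for ADP. Heart muscle and neurons both depend on this relay because their demand for ATP changes quickly.

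The heart library held 44768698 counts and the brain library 37300503, over the same 4992 spot barcodes, all of which both libraries share. Barcodes with at least 500 counts and 200 features were kept as spots over tissue, 3726 in heart (median 9050 counts) and 4080 in brain (median 5981 counts). Ribosomal RNA took 51.3% of the kept counts in heart and 32.9% in brain, so a level scaled to all counts (CPM) is lowered more in heart than a level over the other RNA. The sum of 10 cardiomyocyte markers ran from 8829 to 30033 CPM over groups of heart spots and from 99.3 to 1619 CPM over groups of brain spots. The sum of 10 neuron markers ran from 105 to 385 CPM in heart groups and from 1540 to 4498 CPM in brain groups.

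The 4 kinase genes divide into a heart pair and a brain pair, so the stretch before the transcription start of each is shown here for comparison. The sequences are the 250 bases upstream of the RefSeq start on the coding strand, 5′ to 3′, from the RefSeq promoter table of build GRCm38.p6. All 6 genes matched that table by symbol. Capitals mark 2 motifs, searched on both strands, which are TATAA and the E-box core CANNTG that many basic helix-loop-helix factors recognise. Ckm (chr7:19410844-19411093, plus strand) and Ckmt2 (chr13:91876886-91877135, minus strand) come first, then Ckb (chr12:111672339-111672588, minus strand) and the upstream start of Ckmt1 (chr2:121357526-121357775, plus strand).
Ckm: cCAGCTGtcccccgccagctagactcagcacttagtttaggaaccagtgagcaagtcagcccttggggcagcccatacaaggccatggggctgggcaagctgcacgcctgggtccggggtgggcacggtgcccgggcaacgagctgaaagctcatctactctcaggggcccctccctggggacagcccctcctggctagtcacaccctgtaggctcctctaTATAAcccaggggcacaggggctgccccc
Ckmt2: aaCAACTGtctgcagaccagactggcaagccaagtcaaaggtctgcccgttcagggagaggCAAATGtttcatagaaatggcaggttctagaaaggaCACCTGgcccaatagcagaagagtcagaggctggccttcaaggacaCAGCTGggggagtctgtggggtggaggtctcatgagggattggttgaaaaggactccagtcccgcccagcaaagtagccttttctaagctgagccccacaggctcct
Ckb: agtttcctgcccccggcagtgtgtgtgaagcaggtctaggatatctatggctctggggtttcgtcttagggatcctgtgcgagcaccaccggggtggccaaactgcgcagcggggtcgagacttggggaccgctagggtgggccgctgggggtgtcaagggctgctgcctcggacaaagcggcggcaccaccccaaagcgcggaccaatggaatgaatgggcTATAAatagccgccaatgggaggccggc
Ckmt1: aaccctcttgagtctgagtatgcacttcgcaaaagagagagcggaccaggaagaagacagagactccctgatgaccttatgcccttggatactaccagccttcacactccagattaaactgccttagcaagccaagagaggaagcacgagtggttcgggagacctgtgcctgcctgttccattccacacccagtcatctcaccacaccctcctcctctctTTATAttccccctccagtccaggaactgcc

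The first motif began 29 bases before the start of Ckm, 28 bases before that of Ckb and 30 bases before that of Ckmt1, the last on the opposite strand. Ckmt2 held none, and neither did Slc25a4, Slc25a5 or the second start of Ckmt1. Of 32851 windows of the same length, 22.8% held it. The E-box core occurred 4 times in the Ckmt2 window, once in that of Ckm and not in those of Ckb and Ckmt1, and 66.2% of all windows held at least 1. The ratio of observed to expected CpG dinucleotides was 0.23 for Ckm, 0.111 for Ckmt2 and 0.244 for the Ckmt1 window shown, below the median of 0.373 over all windows. It was 0.46 for the second start of Ckmt1, 0.669 for Ckb, 0.699 for Slc25a4 and 0.617 for Slc25a5, above that median. These matches describe the letters only.

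Ckm and Ckmt2 were the heart creatine kinases, and Ckb and Ckmt1 the brain ones. The size rule used here calls a feature for the section where it has 20 CPM or more and exceeds the other section 4-fold or more. By this rule 3 of the 6 genes were higher in heart (Ckm, Ckmt2 and Slc25a4), 2 were higher in brain (Ckb and Ckmt1), and Slc25a5 was neither. Over all 6345 features with at least 20 CPM in a section, 5.41% were higher in heart and 17.2% higher in brain. The median log2 ratio of heart over brain was -0.43 over the 11925 features that averaged 5 CPM or more, which is where a typical feature lay. Over the counts outside ribosomal, mitochondrial and small structured RNA that median became 0.18, and 9.14% of features were higher in heart and 8.42% in brain. The 6 genes kept their direction on that scaling.

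Ckm, the muscle-type cytosolic kinase, had 8178 counts in heart and 67 in brain. That is 183 CPM in heart (179 to 187) and 1.80 CPM in brain (1.398 to 2.29), a ratio of 101.6 (79.9 to 131). The gene is on chromosome 7 of the older build GRCm38 (19404776 to 19422841, plus strand, protein-coding). Its brain level was 1.49 times the background expected from its span, which was set by the density of counts over 1508 olfactory and vomeronasal receptor genes. Such genes are taken as silent in both tissues, and the ratio was 306 with that background taken off both sections. It came to 44.9 of the 67 brain counts, so the ratio of 306 rests on few counts and has no interval. The annotated span begins upstream of the RefSeq start used for the promoter window of Ckm. A span from that start would be shorter and its background lower, which was not computed. Each Ckm value here that uses the span rests on this choice. An antisense gene, A930016O22Rik, overlaps Ckm, and whether reads were counted by strand is not given in the sources used here.

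Ckmt2, the sarcomeric mitochondrial kinase, had a contrast close to that of Ckm in counts summed over spots. It had 9717 counts in heart (218 CPM, 213.5 to 222) and 77 in brain (2.07 CPM, 1.64 to 2.59), a ratio of 105 (84.0 to 133). The intervals of the Ckm and Ckmt2 ratios overlap over most of their length. With each spot at the same weight the 2 ratios lay further apart, at 147 for Ckm and 69.4 for Ckmt2. The Ckmt2 level in brain was 1.32 times the span background, and with background removed the ratio was 432. That background came to 58.4 of the 77 brain counts, so the ratio of 432 rests on few counts and has no interval. Ckmt2 lies on chromosome 13 (91853387 to 91876885, minus strand, protein-coding) and an antisense gene, 1700119I11Rik, overlaps Ckmt2.

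Ckb, the brain-type cytosolic kinase, ran the other way. It had 172 counts in heart (3.86 CPM, 3.30 to 4.48) and 2713 in brain (73.0 CPM, 70.3 to 75.8). Its ratio of heart over brain was 0.0528 (0.0450 to 0.0616), or 18.95-fold higher in brain. The heart level was 14.98 times the span background. Ckb lies on chromosome 12 (111669361 to 111672338, minus strand, protein-coding) with no overlapping gene in that annotation.

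Ckmt1, the ubiquitous mitochondrial kinase, had 56 counts in heart (1.26 CPM, 0.948 to 1.63) and 1036 in brain (27.9 CPM, 26.2 to 29.6). Its ratio of heart over brain was 0.0450 (0.0338 to 0.0589), 22.2-fold higher in brain, and was 0.0267 with the span background taken off. In heart it stood at 2.41 times the span background. The gene lies on chromosome 2 (121357714 to 121363737, plus strand, protein-coding) and is overlapped on the opposite strand by the protein-coding gene Strc.

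The carriers differed between the tissues by smaller folds than the kinases, whichever the direction. Slc25a4 had 22606 counts in heart (507 CPM, 500.1 to 513) and 3206 in brain (86.3 CPM, 83.4 to 89.4), a ratio of 5.87 (5.66 to 6.09). It ranked 48th of 21771 protein-coding genes by count in heart and 1418th in brain. Slc25a5 had 1267 counts in heart (28.4 CPM, 26.9 to 30.0) and 847 in brain (22.8 CPM, 21.3 to 24.4), a ratio of 1.25 (1.14 to 1.36). On the scaling outside ribosomal, mitochondrial and small RNA the ratios were 8.96 for Slc25a4 and 1.90 for Slc25a5. Slc25a4 lies on chromosome 8 (46206797 to 46211284, minus strand) and Slc25a5 on chromosome X (36795651 to 36798807, plus strand), both protein-coding. Slc25a5 and Ckb have processed pseudogenes in the older annotation, so reads shared with those copies may have been lost or split, and their levels are uncertain to that extent.

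**Figure D1:**
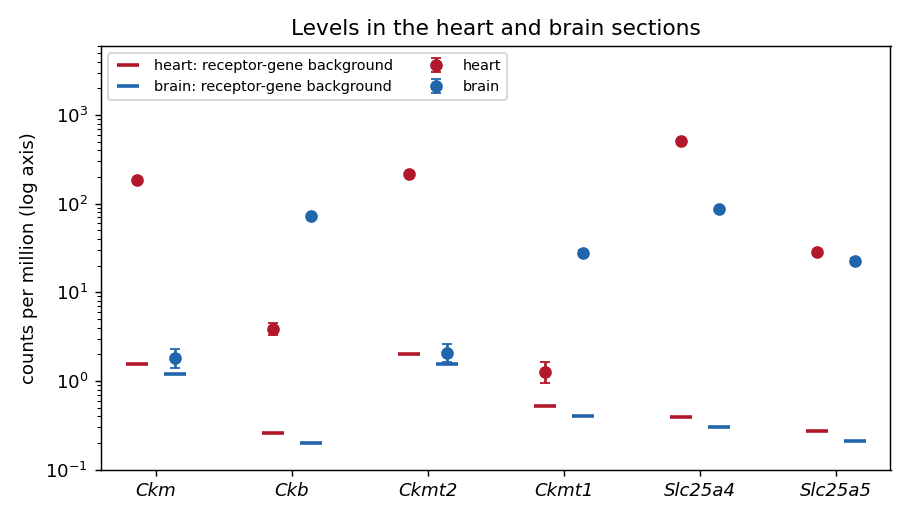
Level of each gene in the heart section (red, left of each pair) and the brain section (blue, right), in CPM on a log axis. Points are 1 library each with an exact 95% Poisson interval, and short bars mark the background expected from the gene's span. Ckm and Ckmt2 in brain sit at 1.80 and 2.07 CPM, next to their background bars, while Slc25a5 lies at 28.4 CPM in heart and 22.8 CPM in brain.

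The families as a whole were also higher in heart. The 4 kinases summed to 406 CPM in heart and 104.8 CPM in brain (ratio 3.88, 3.74 to 4.01). The mitochondrial pair had the larger ratio, with 219 CPM in heart and 29.96 CPM in brain (7.31, 6.87 to 7.79), against 187 CPM and 74.8 CPM for the cytosolic pair (2.501, 2.40 to 2.61). The mitochondrial pair gave 53.9% of kinase counts in heart (53.2 to 54.7) and 28.6% in brain (27.2 to 30.04). Per kb of coding sequence these shares were 51.6% in heart and 26.7% in brain. The 2 carriers summed to 535 CPM in heart and 109.1 CPM in brain (4.90, 4.74 to 5.07).

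Within each pair, the share taken by 1 isoform does not depend on how a library is scaled. Ckm made 97.9% of cytosolic kinase counts in heart (97.6 to 98.2) and 2.41% in brain (1.87 to 3.05). Ckmt2 made 99.4% of mitochondrial kinase counts in heart (99.3 to 99.6) and 6.92% in brain (5.498 to 8.57). With the span background removed the brain shares were 0.809% for Ckm and 1.79% for Ckmt2. That background came to 44.9 of the 67 brain counts of Ckm and 58.4 of the 77 of Ckmt2. In the carrier pair the larger member was the same in both tissues. Slc25a4 made 94.7% of carrier counts in heart (94.4 to 94.97) and 79.1% in brain (77.8 to 80.3), with Slc25a5 at 5.31% in heart and 20.9% in brain.

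Per kb of exon, which allows levels of different genes to be set side by side, Slc25a4 led in both tissues. In heart the order was Slc25a4 at 215 CPM per kb, Ckmt2 at 147, Ckm at 62.9, Slc25a5 at 17.3, Ckb at 1.33 and Ckmt1 at 0.503. In brain it was Slc25a4 at 36.7 CPM per kb, Ckb at 25.2, Slc25a5 at 13.9, Ckmt1 at 11.2, Ckmt2 at 1.40 and Ckm at 0.619. The place of Ckm next to Ckmt2 rests on the length used. Ckmt2 had 173 and Ckm 160 CPM per kb of coding sequence in heart, a far smaller gap, and per kb of gene span the order turned, with 9.27 for Ckmt2 and 10.2 for Ckm. The lead of Slc25a4 in brain also rests on it, since per kb of gene span Ckb had 24.5 and Slc25a4 19.2 CPM per kb there.

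**Figure D2:**
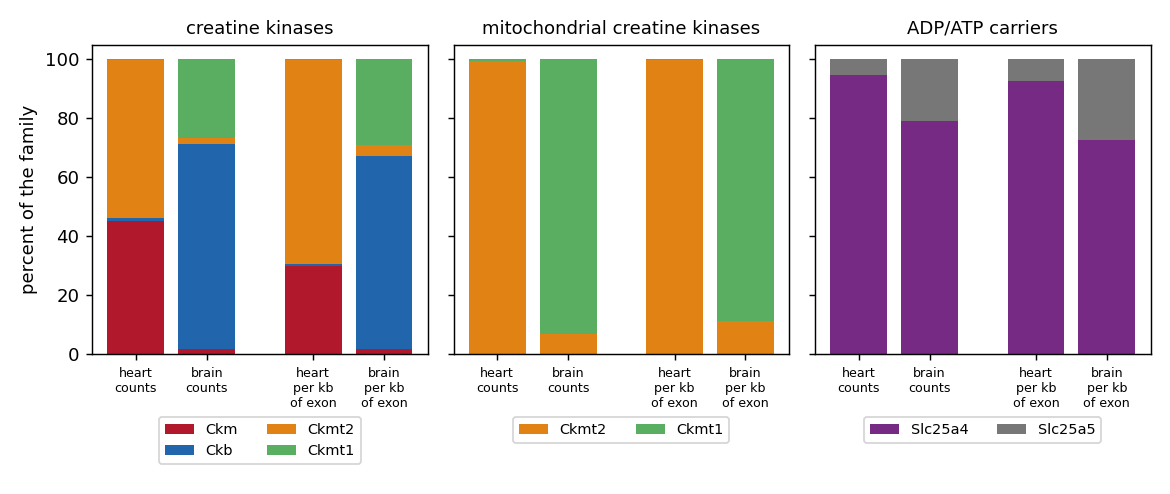
Percent of each family taken by each gene in heart and brain, of counts (left pair of bars) and of counts per kb of exon (right pair), for the 4 creatine kinases, the mitochondrial pair and the carrier pair. Each bar is 1 library. Ckmt2 takes 53.6% of heart kinase counts, 69.4% per kb of exon and, not drawn, 51.3% per kb of coding sequence, while Slc25a4 takes 94.7% of carrier counts in heart and 79.1% in brain.

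The same contrasts appeared spot by spot once each spot was thinned to 2800 counts, which left 2939 heart spots and 3060 brain spots. Slc25a4 had a count in 70.7% of heart spots (69.1 to 72.4) and 21.9% of brain spots (20.5 to 23.4). Ckm was seen in 40.9% of heart spots and 0.425% of brain spots, and Ckmt2 in 40.5% and 0.360%. Without thinning these shares were 70.2% in heart and 1.495% in brain for Ckm, and 65.9% and 1.72% for Ckmt2. Ckb had a count in 0.987% of heart spots and 21.2% of brain spots, and Ckmt1 in 0.476% and 7.88%. Slc25a5 had a count in 7.08% of heart spots (6.18 to 8.07) and 6.54% of brain spots (5.69 to 7.47). How far apart these shares lay rests on the scaling. With spots thinned to 1500 counts outside ribosomal RNA, Slc25a5 had 7.67% in heart (6.73 to 8.69) and 4.62% in brain (3.93 to 5.40). Because the intervals take spots as draws within 1 section, they cannot compare the tissues. The lowest shares, those of Ckm and Ckmt2 in brain and of Ckmt1 in heart, rest on 13, 11 and 14 spots with a count.

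Heart spots were grouped on the expression of other genes, with all listed genes left out, into 5 groups that are called by their leading genes. Group 2 (1023 spots, led by Fuca2, Fbxo40, Trim72 and Lrrc2) had the highest cardiomyocyte marker sum, 30033 CPM. Group 3 (705 spots) was led by Myl7, Myl4, Dkk3 and Nppa, of which Myl7, Myl4 and Nppa are known from atrial muscle. Group 5 (354 spots) was led by the globin genes Hba-a1, Hbb-bs and Hbb-bt and had the lowest cardiomyocyte sum, 8829 CPM. Group 1 (1054 spots) was led by the respiratory chain genes Cox6b1 and Ndufb6, and group 4 (590 spots, median 904.5 counts) by Dnah7c and 3300005D01Rik. Myl4 was also among the leading genes of group 4. The sum of 6 atrial markers was 368 CPM in group 4 and 329 CPM in group 3, against 58.1 to 112 CPM in the others. Spots of 1 section are not replicates, and a spot can hold several cells.

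Ckmt2 and Slc25a4 had the same highest and lowest group. Ckmt2 was highest in group 2 at 258 CPM (251 to 266), with 208 CPM in group 3 and 206 CPM in group 1, which overlap in their intervals, 169 CPM in group 4 (143 to 199.5), and was lowest in group 5 at 72.3 CPM (62.4 to 83.4). Slc25a4 was likewise highest in group 2 at 591 CPM (579.8 to 603), then 549.5 CPM in group 1, 458 CPM in group 4 and 457 CPM in group 3, and lowest in group 5 at 219.7 CPM (202 to 238). Slc25a5 ran from 32.5 CPM in group 2 to 12.6 CPM in group 5. Outside ribosomal, mitochondrial and small RNA the highest Slc25a4 level moved to group 1 (1730 CPM, with 1572 in group 2), and group 5 stayed lowest. In group 5 fewer muscle cells per spot and less of these RNAs per cell cannot be told apart.

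Scaled to all counts, Ckm was highest in group 1 at 297 CPM (283 to 310.5), with 202 CPM in group 2, 167 CPM in group 4 (140.5 to 197), 139 CPM in group 5 (125 to 154) and 134 CPM in group 3 (129 to 139). The intervals of groups 3 and 5, of 4 and 5 and, narrowly, of 2 and 4 overlap. The difference from Slc25a4 in the highest group rests on the scaling. Outside ribosomal, mitochondrial and small RNA both were highest in group 1, and Ckm had 933.8, 538, 297, 372 and 289 CPM in groups 1 to 5. On that scaling Ckm was nearly level between groups 3 and 5, while Slc25a4 had 1012 CPM in group 3 and 456 CPM in group 5. Of the counts of Ckm and Ckmt2 together, Ckm made 65.8% in group 5 (61.7 to 69.8), 59.1% in group 1 (57.3 to 60.8), 49.6% in group 4 (43.7 to 55.6), 43.9% in group 2 (42.8 to 45.03) and 39.2% in group 3 (38.0 to 40.5). The balance between the cytosolic and the mitochondrial kinase thus differed between groups by more than counting error. The carrier balance spread less, with Slc25a4 at 94.2% of carrier counts in group 3 (93.7 to 94.7) and 95.6% in group 1 (94.8 to 96.2). These 2 intervals do not overlap, and the other 3 groups lay between.

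The Ckm level also moved with the depth of the spots. In quintiles of heart spots (5 sets of nearly the same number of spots) ordered by total counts, from shallow to deep, Ckm had 440.5, 256, 210.2, 177.5 and 156 CPM. Ckmt2 had 175, 159, 185, 213 and 242 CPM, and Slc25a4 602, 456, 465, 506 and 525 CPM. The median counts per spot of these quintiles were 953, 5349, 9055, 14333 and 27128, and ribosomal RNA took 44.4% of the shallowest quintile and between 50.7% and 52.2% of the others. The deepest quintile over the shallowest was 0.354 for Ckm (0.317 to 0.395), 1.38 for Ckmt2 (1.17 to 1.64) and 0.872 for Slc25a4 (0.797 to 0.956), the last of which became 1.002 outside ribosomal, mitochondrial and small RNA. The groups differ in depth as well, with medians of 6122, 14712, 24326, 904.5 and 7382 counts in groups 1 to 5. Group 4, the shallowest, had 167 CPM of Ckm, against 440.5 CPM in the shallowest quintile. The part of depth in the Ckm differences between the groups was not tested.

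**Figure D3:**
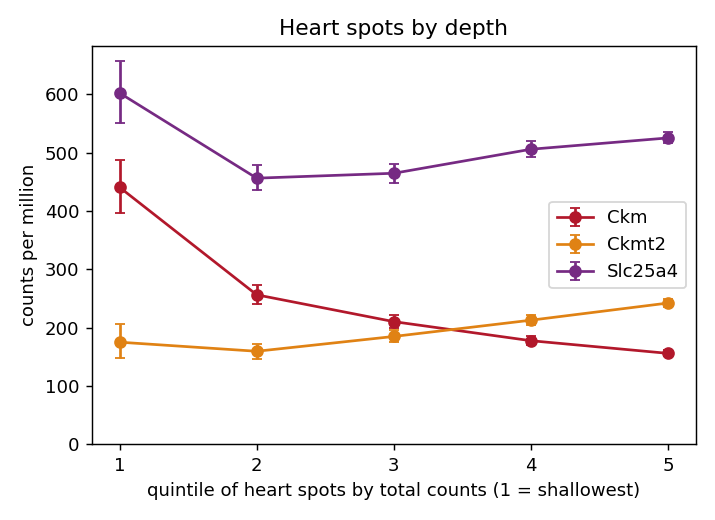
CPM of Ckm, Ckmt2 and Slc25a4 in quintiles of heart spots from the shallowest (1) to the deepest (5) by total counts. Points are sums over the spots of a quintile with exact 95% Poisson intervals. Ckm is lower at each step, with 440.5 CPM in the first quintile and 156 CPM in the last, and Ckmt2 has its highest value, 242 CPM, in the last.

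When heart spots were ordered by the share of 10 cardiomyocyte markers instead, all 4 genes with more than 20 CPM in heart were lowest in the bottom quintile. Ckmt2 had 64.6, 177, 212, 250.3 and 279.6 CPM from the lowest to the highest quintile, the top being 4.33 times the bottom (3.89 to 4.83). Slc25a4 had 197, 431, 512, 577 and 613 CPM (3.11 times, 2.92 to 3.31). Ckm had 104.6, 177, 193, 200.4 and 199.5 CPM (1.91 times, 1.74 to 2.09) and did not differ beyond its intervals between the upper 2 quintiles. Slc25a5 had 12.6 CPM in the bottom and 33.6 CPM in the top quintile (2.66 times, 2.07 to 3.46). Median depth was 6058 counts in the bottom and 16099 in the top quintile, and ribosomal RNA took 44.2% and 54.0%. With spots ordered by ribosomal RNA share, top over bottom was 1.58 for Ckm, 2.04 for Ckmt2, 1.83 for Slc25a4 and 1.93 for Slc25a5. The part of depth or ribosomal RNA in the cardiomyocyte gradients was not tested. By the share of 7 fibroblast markers, the top quintile over the bottom was 0.492 for Ckm, 0.706 for Ckmt2, 0.695 for Slc25a4 and 0.991 for Slc25a5 (0.749 to 1.32), with median depths of 7849 counts at the top and 2858 at the bottom.

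Skeletal muscle also uses Ckm and Ckmt2. The 8 skeletal muscle markers summed to between 28.7 and 41.5 CPM over the 5 heart groups and between 4.86 and 15.4 CPM over the brain groups, with the highest heart sum in group 5. That group also had the highest heart sums of neuron (385 CPM), myelin, astrocyte, choroid plexus, fat and leukocyte markers. Its high sum was thus not particular to skeletal muscle.

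In brain, 10 groups of spots were found in the same way, and the 4 genes with more than 20 CPM there had different patterns. Group 3 (662 spots, led by Shox2, Prkcd, Synpo2 and Plekhg1) had the highest level of both carriers and of Ckmt1. Group 7 (166 spots), with Penk, Drd2 and Drd1 among its leading genes, which are known from medium spiny neurons of the striatum, had the highest Ckb. Group 10 (60 spots, led by Dsp, Maml2, Slc29a4 and Prox1) had the lowest Ckb.

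Ckb had 126 CPM in group 7 (106 to 148), then 100.4 CPM in group 3 (92.1 to 109.3) and 100.4 CPM in group 5 (85.2 to 117.6), all 3 with overlapping intervals. Group 5 is the one whose leading genes include Ermn, Mobp and Cldn11, which are those of myelin. Groups 1, 2 and 6 had 81.05, 83.1 and 75.6 CPM, with overlapping intervals, and group 4 (led by Pmch, Avp and Dlk1) had 58.3 CPM. The lowest levels were 48.6 CPM in group 8 (led by 4921539H07Rik, Neurod6 and Hpca), 44.0 CPM in group 9 (led by the choroid plexus genes Ttr and Kl) and 30.4 CPM in group 10 (24.5 to 37.3). The highest over the lowest was 4.15 (3.17 to 5.45). Groups 8 and 10 were the deepest, with medians of 34709 and 46271 counts per spot against 1257 to 21106 in the others, and the part of depth in their low Ckb was not tested.

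Ckmt1 had 51.99 CPM in group 3 (46.05 to 58.5), which lay above the interval of every other group. Group 8 followed at 30.05 CPM, groups 1 and 4 at 26.3 and 24.7 CPM, and groups 5 and 10 at 22.8 and 22.4 CPM. The lowest were group 7 at 16.3 CPM, group 2 at 14.6 CPM, group 6 at 11.1 CPM (led by Ptgds, Thbd and Fmod, with the highest fibroblast sum) and group 9 at 10.5 CPM (6.01 to 17.1), all with overlapping intervals. Of the counts of Ckb and Ckmt1 together, Ckb made 88.6% in group 7 (82.7 to 92.97), 87.2% in group 6 (80.05 to 92.5), 65.9% in group 3 (62.5 to 69.2), 61.8% in group 8 (56.8 to 66.6) and 57.6% in group 10 (49.5 to 65.4). Over quintiles of all brain spots by depth, the deepest over the shallowest was 0.783 for Ckb (0.622 to 0.997) and 1.61 for Ckmt1 (1.01 to 2.74). Neither had a steady course. From shallow to deep Ckb had 74.4, 95.98, 93.5, 91.9 and 58.2 CPM, and Ckmt1 17.2, 17.8, 32.2, 31.0 and 27.6 CPM.

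Slc25a4 ran from 119.9 CPM in group 3 (110.8 to 129.6) and 101.7 CPM in group 8 (93.1 to 110.9) to 58.3 CPM in group 7 and 38.9 CPM in group 6 (29.4 to 50.5). Slc25a5 ran from 38.9 CPM in group 3 (33.7 to 44.5) to 10.9 CPM in group 4 (8.14 to 14.4). Slc25a4 made 87.4% of carrier counts in group 4 (83.7 to 90.5), 75.5% in group 3 (72.5 to 78.4), 68.99% in group 9 (61.2 to 76.1) and 68.7% in group 7 (58.6 to 77.6). It was the larger carrier by counts in each of the 10 groups.

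**Figure D4:**
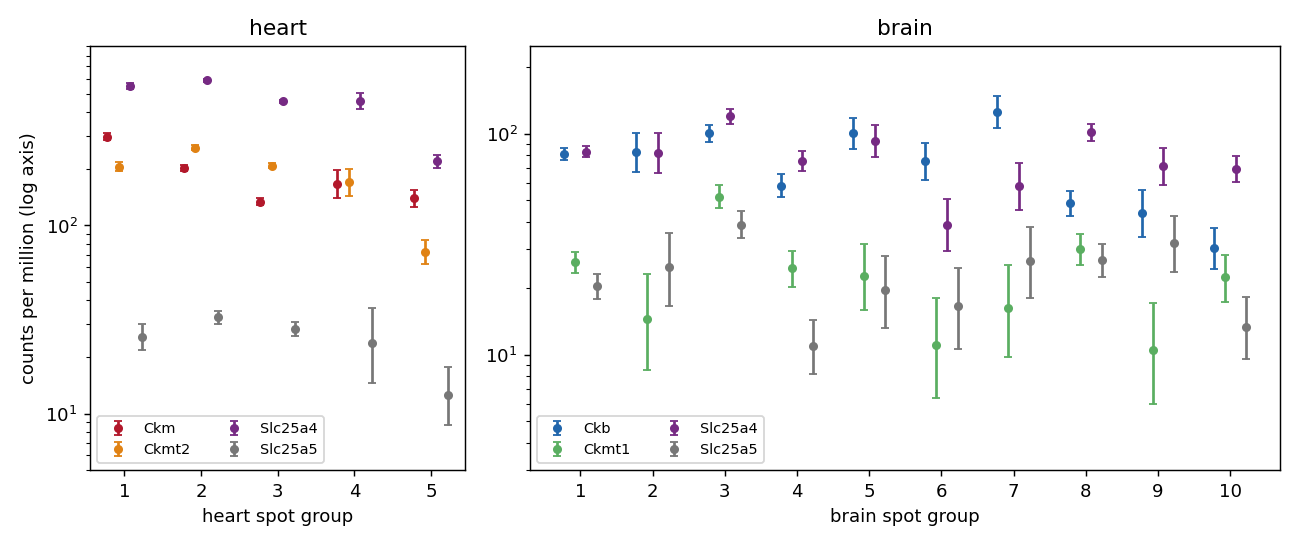
CPM (log axis) in the 5 heart spot groups (left) and the 10 brain spot groups (right), with exact 95% Poisson intervals. The 4 genes with at least 20 CPM in the section are drawn, and each point is the sum over the spots of 1 group. Ckmt2 and Slc25a4 lie at 72.3 and 219.7 CPM in heart group 5, and Ckb peaks in brain group 7 while Ckmt1 and both carriers peak in brain group 3.

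Ckm and Ckmt2 stayed low in every brain group. Ckm ran from 0.429 to 3.28 CPM on 1 to 24 counts, and Ckmt2 from 1.31 to 4.67 CPM on 2 to 21 counts. The Ckmt2 maximum was in group 10 (14 counts, 2.56 to 7.84 CPM), where the cardiomyocyte marker sum was also highest for brain, 1619 CPM. That sum contains Ryr2, which neurons express as well. In heart, Ckb lay between 1.18 and 4.10 CPM over the 5 groups, with overlapping intervals. Ckmt1, on few counts, was highest there in group 5 at 4.19 CPM (11 counts, 2.09 to 7.49). It was lowest in group 2 at 0.772 CPM (13 counts, 0.411 to 1.32). Its top cardiomyocyte quintile over the bottom was 0.376 (0.152 to 0.909).

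Across quintiles of brain spots ordered by marker share, Ckb and Ckmt1 moved apart with astrocyte markers at the ends of the range. By the sum of 8 astrocyte markers, Ckb had 61.7, 79.4, 63.95, 86.4 and 94.7 CPM from the lowest to the highest quintile, the top being 1.54 times the bottom (1.33 to 1.77). Ckmt1 had 32.3, 28.7, 29.3, 22.7 and 15.95 CPM, and its top quintile was 0.494 of the bottom one (0.357 to 0.671). Slc25a4 had 98.2, 87.1, 83.8, 80.1 and 64.2 CPM (0.654, 0.557 to 0.763). The top astrocyte quintile was also the shallowest, with a median of 2674 counts against 7517 in the bottom one, and that part was not tested.

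By the sum of 10 neuron markers, Ckmt1 had 17.4 CPM in the bottom quintile and 32.7 CPM in the top (1.88 times, 1.43 to 2.51), and Slc25a4 59.9 and 95.01 CPM (1.59 times, 1.37 to 1.85). Median depth was 2714 counts at the bottom and 8285 at the top, and its part was not tested. Ckb had 76.1, 63.4, 61.5, 90.2 and 75.6 CPM over these quintiles, with no steady course and a top over bottom of 0.993 (0.863 to 1.15). Slc25a5 had 26.7 CPM in the top quintile against 19.9 CPM in the bottom (1.35 times, 1.03 to 1.77). By the sum of 9 myelin markers, the top quintile over the bottom was 1.35 for Ckb (1.17 to 1.57), 1.57 for Slc25a5 (1.21 to 2.03), 1.18 for Slc25a4 (1.03 to 1.36) and 1.22 for Ckmt1 (0.952 to 1.57). Median depth was 2204 counts at the bottom and 3891 at the top, and ribosomal RNA took 31.2% and 35.2%. With spots ordered by ribosomal RNA share, top over bottom was 1.40 for Ckb, 1.95 for Slc25a5, 1.49 for Slc25a4 and 1.51 for Ckmt1. The part of depth or ribosomal RNA in the myelin gradients was not tested.

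**Figure D5:**
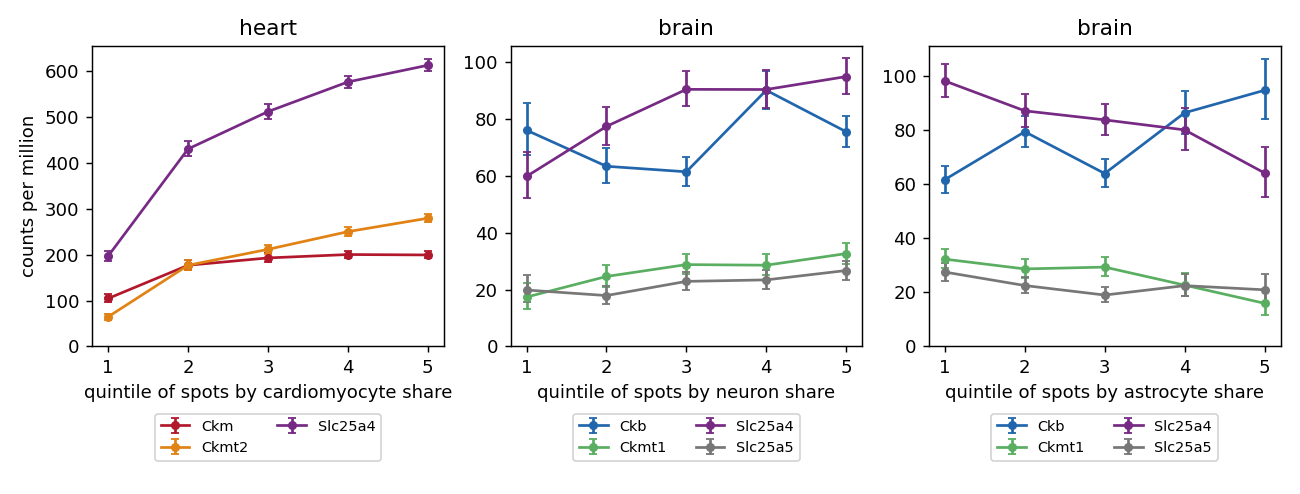
CPM in quintiles of spots ordered by the summed share of cardiomyocyte markers in heart (left), neuron markers in brain (middle) and astrocyte markers in brain (right), with exact 95% Poisson intervals. Lines join the quintiles from lowest (1) to highest (5) share. In heart Ckm flattens near 200.4 CPM while Ckmt2 and Slc25a4 go on to 279.6 and 613 CPM, and in brain Ckb ends at 94.7 CPM and Ckmt1 at 15.95 CPM in the highest astrocyte quintile, against 61.7 and 32.3 CPM in the lowest.

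The features with the most similar course over the groups of a section were named by the highest Pearson correlation of log2(CPM + 1), among features with at least 50 CPM. The groups share a library and differ in depth and marker content, so these values are descriptions without a test. The 5 nearest are given for each gene. Over the 10 brain groups, with 2608 or 2609 features compared, they were Elmo1, Ttc39b, Pcdh10, Dync1li2 and Ntm for Ckb (r = 0.898 to 0.839) and Kif3c, Ywhah, Ociad1, Xkr4 and Ttc19 for Ckmt1 (0.953 to 0.931). For Slc25a4 they were Eif1ax, Ipo7, Pafah1b1, Rab3a and Slc4a8 (0.952 to 0.936), and for Slc25a5 Gm15564, Cplx1, Trps1, Eif4g2 and Purg (0.778 to 0.74). Between members in brain, r was 0.77 for Ckmt1 and Slc25a4, 0.12 for Ckb and Ckmt1 and 0.05 for Ckb and Slc25a4. Over only 5 heart groups r was 0.999 or more for all those nearest to Ckmt2 (Rgs5, Tacc2, Atp5g1, Slc38a2 and Lpl), to Slc25a4 (Mybpc3, Hspa5, Hspb7, Tnni3 and Eno3) and to Slc25a5 (Hdlbp, Sdhb, Xirp2, Cd36 and an unnamed feature), so it separates these genes poorly. Nearest to Ckm were Zfhx3, Kcnip1, Dnaaf10, Cmss1 and Gm17344 (0.965 to 0.905). Ckm had an r of 0.47 with Ckmt2, against 0.98 between Ckmt2 and Slc25a4.

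Of 3 genes of creatine supply, 1 passed the size rule, and in brain, where 17.2% of all features passed it. Gatm, which makes the creatine precursor guanidinoacetate, had 3.16 CPM in heart and 28.5 CPM in brain (9.02-fold higher in brain). Slc6a8, the creatine transporter of the plasma membrane, had 26.2 CPM in heart and 19.0 CPM in brain (ratio 1.38, 1.26 to 1.52). Gamt, which makes creatine from guanidinoacetate, was low in both, with 25 counts in heart and 31 in brain.

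None of the 6 genes of the phosphate carrier and porin list passed the rule, and their log2 ratios had a median of 1.18 and were all above 0. Outside ribosomal, mitochondrial and small RNA 2 of them, Slc25a3 (4.54-fold) and Ppif (4.92-fold), passed it in heart. Slc25a3, which brings in the phosphate that ATP synthase needs, had 183 CPM in heart and 61.6 CPM in brain (2.98-fold), and Vdac1, the main pore of the outer membrane, 131 and 82.1 CPM (1.59-fold). Of 14 ATP synthase genes 13 had a ratio above 1 (median log2 1.69) and 4 passed the rule in heart, which became 11 outside ribosomal, mitochondrial and small RNA. Of all features 5.41% passed in heart (median log2 -0.43), and on the other scaling 9.14% (median 0.18). The 4 ATP synthase genes past the rule scaled to all counts included the ring subunit genes Atp5g1 (7.64-fold) and Atp5g3 (4.51-fold). The others were Atp5e (7.32-fold) and Atp5h (4.52-fold), while Atp5o stood at 22.2 CPM in heart and 20.8 CPM in brain. Of 8 cristae and inner membrane genes none passed, and 1, Apool, did in heart on the other scaling (4.30-fold). The list held Immt, the core of the cristae junction complex, at 76.99 CPM in heart and 38.2 CPM in brain and Chchd6 at 27.5 and 67.3 CPM.

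Adenylate kinases also balance adenine nucleotides, and by the rule 1 of 9 was higher in heart and 1 higher in brain. For the lists in this paragraph, the shares over all features were 5.41% higher in heart and 17.2% higher in brain. On the other scaling they were 9.14% and 8.42%. Ak1, the cytosolic form of muscle, had 67.5 CPM in heart and 14.9 CPM in brain (4.54-fold higher in heart, 4.15 to 4.99), and Ak5 had 23.8 CPM in heart and 144 CPM in brain (6.06-fold higher in brain). They were the 2 of 9 past the rule, and on the other scaling Ak5, at 3.97-fold, was not. None of 10 genes of AMP deaminase and AMP-activated kinase passed, with Prkaa2 at 87.8 CPM in heart and 53.4 CPM in brain and Prkag2 at 58.3 and 164 CPM. Among 7 other carriers of adenine nucleotides, Slc25a23, an ATP-Mg/phosphate carrier, was the 1 past the rule, at 9.86 CPM in heart and 47.7 CPM in brain (3.17-fold and not past it on the other scaling), and Slc25a25 had 9.64 and 27.5 CPM. Slc25a31, the carrier of male germ cells, had 2.65 CPM in heart and 2.42 CPM in brain.

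Of 12 listed pumps and motors that spend ATP, 3 were higher in heart by the rule (Atp2a2, Myh6 and Myh7) and 5 higher in brain, on both scalings, beside 5.41% and 17.2% of all features scaled to all counts and 9.14% and 8.42% on the other scaling. Those higher in brain included Atp1b1 and Atp1b2, beta subunits of the sodium pump, and the calcium pumps Atp2b1 and Atp2b2. Myh6, the fast cardiac myosin, had 4126 CPM in heart and 2.32 CPM in brain. Atp2b2 had 29.1 CPM in heart and 411 CPM in brain, and Atp2a2, the calcium pump of the sarcoplasmic reticulum, 2443 CPM in heart and 337 CPM in brain. None of 6 transcriptional regulators of muscle and mitochondrial genes passed, from Esrrg at 261 CPM in heart and 136 CPM in brain to Mef2c at 93.7 and 322.5 CPM.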

How the data were processed

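STARsolo and the build mm39 are named in the submitters' processing notes. The STARsolo version is not given in the sources used here, nor is whether molecular tags were merged, introns counted or strand used. The authors deposited raw counts per feature and spot for 1 heart and 1 brain library. Counts were summed over spots with at least 500 counts and 200 features and scaled to the total (CPM). Lengths, overlaps, biotypes and coordinates come from GENCODE M21 on GRCm38, an older build, matched by gene ID. Intervals are exact Poisson, binomial and conditional binomial, at 95%. Spots were thinned without replacement (seed 1). Groups used Scanpy 1.11.5 (2000 variable genes, 20 components, 15 neighbours, Leiden resolution 0.6). Python 3.11.15, NumPy 2.4.6 and SciPy 1.17.1 were used, and the ratios and intervals were tested on simulated data. The genes and lists were chosen with earlier results of these data known. Genes outside the 6 were named by a rule: per list the highest and lowest ratio at 20 CPM or more and each gene past the size rule, and the 5 features nearest over spot groups. Gamt, Slc25a31, Ppif and Apool fall outside it and were added after their values were seen. Some genes that the rule names are not reported here. Spot positions were not used here.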

Additional observations from a re-analysis of the deposited data

Results flagged for a closer look

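Counts of the members also lay in barcodes below the spot threshold, which the comparisons leave out. These were 24 counts of Ckm, 28 of Ckmt2 and 78 of Slc25a4 over 1266 heart barcodes with 154831 counts in all, and 16 of Ckb and 11 of Slc25a4 over 912 brain barcodes with 156957. They were singled out because each exceeds the 3 counts that a count of 0 allows. As levels they come to 155 CPM for Ckm, 181 CPM for Ckmt2 and 504 CPM for Slc25a4 in heart, and 101.9 CPM for Ckb and 70.1 CPM for Slc25a4 in brain, beside 183, 218 and 507 CPM in kept heart spots and 73.0 and 86.3 CPM in kept brain spots.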

How the results depend on the processing

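No paired analysis was possible because each tissue is 1 library, and no replicate could be left out. The ratio of heart over brain kept its direction for all 6 genes under each setting tried. With CPM outside ribosomal, mitochondrial and small RNA it was 155 for Ckm, 0.0805 for Ckb, 0.0687 for Ckmt1, 160.3 for Ckmt2, 8.96 for Slc25a4 and 1.90 for Slc25a5. With each spot at the same weight it was 147, 0.0381, 0.0629, 69.4, 6.28 and 1.12 in that order. With the span background subtracted it was 306 for Ckm, 0.0267 for Ckmt1 and 432 for Ckmt2, each on few remaining counts and without an interval. The isoform shares moved with the length used. Per kb of gene span, Ckm was 88.7% of the cytosolic pair in heart and 0.405% in brain, Ckmt2 97.8% and 1.87% of the mitochondrial pair, and Slc25a4 92.6% and 72.7% of the carriers. Per kb of exon, Ckmt2 was 99.7% and 11.1% and Slc25a4 92.6% and 72.6%. With background subtracted, Ckm in brain was 0.809% and Ckmt2 99.7% in heart and 1.79% in brain. Shares per kb of coding sequence and spots with at least 5000 counts were settings chosen after seeing the data. In spots with at least 5000 counts no ratio moved beyond its counting interval. Coding length could hardly move a share within a pair, because the lengths in a pair are the same or nearly so. They are 1143 bases for Ckm and Ckb, 894 for both carriers, 1254 for Ckmt1 and 1257 for Ckmt2. Per kb of coding sequence the shares among all 4 kinases did move, Ckm to 47.5% and Ckmt2 to 51.3% in heart and Ckb to 71.5% and Ckmt1 to 24.9% in brain. Over spot groups at Leiden resolution 0.3, the highest over the lowest group was 2.05 for Ckm in heart and 2.12 for Slc25a4 in brain, and at resolution 1.0 it was 4.51 for Ckm and 5.45 for Slc25a5 in brain. Outside ribosomal, mitochondrial and small RNA, the top over the bottom cardiomyocyte quintile was 2.57 for Ckm, 5.83 for Ckmt2, 4.19 for Slc25a4 and 3.58 for Slc25a5, and the top over the bottom fibroblast quintile 0.403 for Ckm, 0.579 for Ckmt2 and 0.570 for Slc25a4. On that scaling 2 list medians changed sign or left 0, creatine supply to 0.04 and adenylate kinases to 0.61 (log2). The cause of these moves was not tested. Depth limits Ckm and Ckmt2 in brain (67 and 77 counts) and Ckmt1 in heart (56 counts).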
